A study of Mus musculus with 18 samples.

Results

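The 35 genes described here are interferon-stimulated genes and regulators of the interferon response. They were taken as a list of symbols that was chosen with earlier results of these data known. All 35 matched 1 Ensembl ID each among the 54532 genes of the count table, and all 35 passed the filter on low counts that left 16257 genes for testing. They comprise 3 chemokine ligands, 5 transcription factors, 5 nucleic acid sensors, 5 genes of the oligoadenylate synthetase family, 3 of the IFIT family, 11 Mx and other antiviral effectors and 3 genes of the ISG15 system.

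RNA of whole jejunum came from mice of the inbred C57BL/6 strain, 8 to 12 weeks old, in 3 groups. The control group (6 libraries) was not irradiated. The CONV group (5 libraries) received 15 Gy to the whole abdomen at a conventional dose rate, and the FLASH group (7 libraries) received 15 Gy at an ultra-high dose rate. Irradiated tissue was taken at 16 h, so the comparisons ask how the interferon-stimulated genes stood at that time after each dose rate and whether the dose rates differed. Libraries are named by group and label number, and CONV values are always listed for CONV 2, 3, 5, 6 and 7 in that order. Nothing in the labels ties a library to a single mouse, so the p-values describe variation among these libraries, which may be partly technical. In whole tissue, fewer cells of a type and less RNA per cell cannot be told apart.

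Interferons are secreted signalling proteins. Type I interferons (alpha and beta) and type III interferons (lambda) activate a factor that contains STAT2 and IRF9 and binds the interferon-stimulated response element, and type II interferon (gamma) acts mainly through the gamma-activated site. In the intestine, type III interferon acts mainly on epithelium, and gamma interferon comes mainly from T cells, innate lymphoid cells and NK cells. Cytosolic sensors of nucleic acids such as cGAS, RIG-I and MDA5 lead to interferon production, and many sensors and transcription factors of the pathway are themselves interferon-stimulated.

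The promoters of 6 members are shown as examples of the elements through which these genes are known to be controlled: 5 members that fell after FLASH and Irf9, which rose. RefSeq promoter windows (GRCm38.p6, 250 bases before to 50 bases after a start) were matched for 24 of the 35 members. Each line gives the 250 bases before the start, 5′ to 3′ on the gene's strand, and capitals mark matches on either strand to GAAANNGAAA (letters of the interferon-stimulated response element) or TTCNNNGAA (letters of the gamma-activated site).
Isg15 (chr4:156200819-156201068, minus strand): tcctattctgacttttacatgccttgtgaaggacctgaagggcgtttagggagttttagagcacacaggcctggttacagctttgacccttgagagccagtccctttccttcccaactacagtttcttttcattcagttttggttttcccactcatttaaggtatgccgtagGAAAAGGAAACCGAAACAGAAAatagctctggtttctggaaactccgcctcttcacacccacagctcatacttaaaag
Cxcl10 (chr5:92348890-92349139, minus strand): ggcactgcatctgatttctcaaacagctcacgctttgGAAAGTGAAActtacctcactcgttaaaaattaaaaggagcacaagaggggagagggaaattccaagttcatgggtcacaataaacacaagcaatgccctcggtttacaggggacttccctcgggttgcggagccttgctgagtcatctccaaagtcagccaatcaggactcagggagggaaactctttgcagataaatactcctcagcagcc
Bst2 (chr8:71537473-71537722, minus strand): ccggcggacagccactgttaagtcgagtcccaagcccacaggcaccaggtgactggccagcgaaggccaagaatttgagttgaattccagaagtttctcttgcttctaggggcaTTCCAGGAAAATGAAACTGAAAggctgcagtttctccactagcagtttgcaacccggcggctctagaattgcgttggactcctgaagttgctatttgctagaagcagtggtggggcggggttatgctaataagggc
Ifit1 (chr19:34640639-34640888, plus strand): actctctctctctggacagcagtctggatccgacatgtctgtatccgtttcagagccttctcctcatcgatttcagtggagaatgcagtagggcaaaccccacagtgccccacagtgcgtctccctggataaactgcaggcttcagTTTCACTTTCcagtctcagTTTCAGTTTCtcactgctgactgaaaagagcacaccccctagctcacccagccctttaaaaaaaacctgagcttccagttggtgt
Irf1 (chr11:53769764-53770013, plus strand): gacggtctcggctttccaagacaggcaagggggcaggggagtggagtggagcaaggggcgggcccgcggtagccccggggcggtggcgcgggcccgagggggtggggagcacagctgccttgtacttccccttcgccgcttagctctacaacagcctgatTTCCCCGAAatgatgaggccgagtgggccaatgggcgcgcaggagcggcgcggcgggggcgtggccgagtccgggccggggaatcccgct
Irf9 (chr14:55603735-55603984, plus strand): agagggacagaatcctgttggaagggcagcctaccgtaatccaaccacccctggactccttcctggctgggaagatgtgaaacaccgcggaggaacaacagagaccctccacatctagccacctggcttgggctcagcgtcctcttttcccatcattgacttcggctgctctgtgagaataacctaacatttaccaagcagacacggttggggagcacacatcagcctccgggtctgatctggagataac

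Isg15 held 3 overlapping matches to GAAANNGAAA, starting 78, 72 and 66 bases before the start. Bst2 held 2 overlapping ones at 130 and 124 bases, the first of which shared bases with a TTCNNNGAA match at 136 bases, so the letters in capitals there belong to both motifs. Cxcl10 held 1 match to GAAANNGAAA at 213 bases and Ifit1 held 2, at 104 and 85 bases, on the opposite strand. Irf1 held a TTCNNNGAA match at 90 bases, and the Irf9 stretch held neither motif. Over the whole windows, GAAANNGAAA was present for 12 of 24 members, against 3.99% of 27025 genes and 3.44% of all 32851 windows. TTCNNNGAA was present for 6 of 24 members, against 9.55% of genes and 8.30% of windows, and 3 members held both. Of 13 members with a window that fell after FLASH, 6 held GAAANNGAAA, and so did 6 of the 10 that did not pass the test. A match describes letters in the window and not a bound site.

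Library depth was 24.3 to 27.8 M estimated counts in controls, 19.9 to 27.0 M in CONV and 23.1 to 30.2 M in FLASH. Levels are given as CPM, counts divided by library sizes that were scaled by the trimmed mean of M values (TMM) and brought to a common size. Epithelial markers of the jejunum summed to 9910 to 27500 CPM in controls, 38000 to 77400 CPM in CONV and 32600 to 66200 CPM in FLASH, so that every irradiated library was above every control. Of 2 colon markers, Car1 had 0 counts in every library, and the sum of the 2 reached at most 0.589 CPM. Of 6 pancreas genes, Cpa1 and Pnlip had 0 counts in every library. The 6 summed to 2.43 to 12.7 CPM in controls, 3.95 to 9.48 CPM in CONV and 3.91 to 8.71 CPM in FLASH. Of the 5 radiation-response genes checked (Cdkn1a, Phlda3, Mdm2, Eda2r and Ccng1), 5 rose in both irradiated groups with no overlap with controls. Markers of the ileum (Fabp6 and Slc10a2), the segment next to the jejunum, differed between libraries of 1 group: their sum was 152 CPM in control 2 and 20.4 to 50 CPM in the other controls, 279 and 117 CPM in CONV 2 and CONV 3 and 1.35 to 39.7 CPM in the other CONV libraries, and 286 and 285 CPM in FLASH 6 and FLASH 7 against 4.01 to 13.1 CPM in the rest. Counts of called members are therefore also given without those 5 libraries, a choice made after seeing the data.

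The mean log2 CPM of the 35 genes gave the general level of the set in each library. It ranged from 3.88 to 4.97 in controls (median 4.42), from 3.85 to 4.92 in CONV (median 4.01) and from 3.08 to 4.0 in FLASH (median 3.65). CONV 7 stood apart from the other CONV libraries: its mean was 4.92, theirs were 3.85 to 4.07, and it was the highest CONV library for 29 of the 35 genes. Among controls, control 3 was highest for 21 genes and control 2 lowest for 20. Among FLASH libraries, FLASH 7 was lowest for 17 genes. The low libraries control 2, CONV 2, FLASH 6 and FLASH 7 (means 3.88, 3.85, 3.33 and 3.08) were among those with high ileum markers. CONV 7 had the lowest ileum marker sum of its group. Other libraries did not follow this order: CONV 3, with high ileum markers, had the second highest CONV mean (4.07), and FLASH 1, with 9.11 CPM of ileum markers, had a mean of 3.37, near that of FLASH 6. The part of segment position in these differences was not tested.

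**Figure D1:**
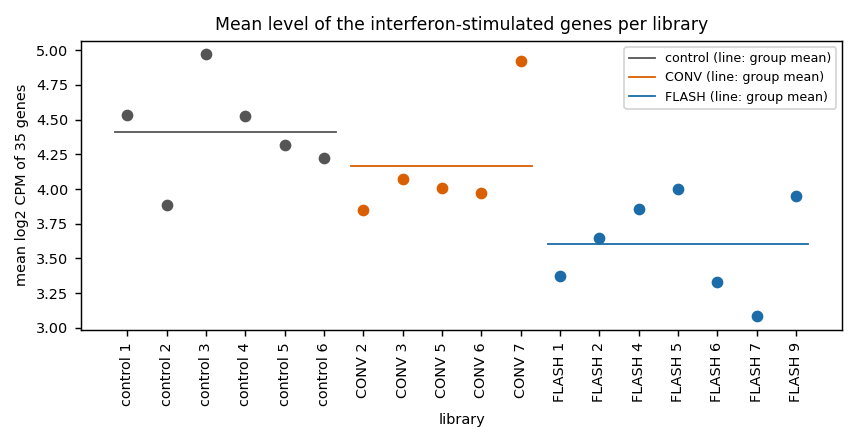
Mean log2 CPM of the 35 interferon-stimulated genes (vertical axis) in each of the 18 libraries (horizontal axis), with a line at each group's mean. FLASH libraries lie between 3.08 and 4.0, and CONV 7 at 4.92 lies above the other 4 CONV libraries.

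After FLASH, members of every role in the list fell against controls. Of the 35, 17 fell and 2 rose (adjusted p under 0.05), which is 54.3% called, beside 37.7% of all genes tested. The share that fell was 48.6%, beside 21.0% of all genes, and 16.7% of all genes rose. The median log2 fold change of the 35 was -0.60, beside -0.07 for all genes. Because earlier results of these data were known when the list was chosen, the shares describe this list and are not an independent test of it. After CONV, 4 fell and 3 rose (7 of 35, beside 22.2% of all genes called, 12.0% lower and 10.2% higher), with a median of -0.26 beside -0.04, so the share called was close to the background. FLASH was lower than CONV for 6 genes and higher for none (17.1%, beside 19.8% of all genes called and 9.91% called lower), with a median of -0.46 beside -0.02. Scaling libraries by their totals moved the median of all genes to -0.44 after FLASH and to -0.18 for FLASH against CONV; 25 members then fell and 0 rose after FLASH by edgeR's test, and 12 were lower in FLASH than in CONV (beside 40.3 and 17.3% of all genes called lower, and 8.49% called higher after FLASH). The 2 comparisons with control share the control libraries, so their values are set side by side and not counted as independent.

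The libraries of the 2 groups did not overlap for 7 members that were lower in FLASH than in controls (beside 6.86% of all genes), for 1 that was lower and 2 that were higher in CONV than in controls (4.95 and 5.46% of all genes), and for 4 that were lower in FLASH than in CONV (4.45%). Without CONV 7, 9 members differed between CONV and control (7 lower and 2 higher, beside 18.1% of all genes), 6 of them also called with it, and the median was -0.48. Cxcl10, Dhx58 and Ifi44 then fell after CONV and Ifi35 no longer passed. Without CONV 7, 4 of the 6 members called lower in FLASH than in CONV passed (beside 6.61% of all genes called lower) and Bst2 and Isg15 did not. Without the 5 libraries with over 100 CPM of ileum markers, 3 members differed between CONV and control (beside 6.58% of all genes) and 12 between FLASH and control (beside 24.1% of all genes; 10 were lower, beside 12.6% of all genes called lower). The CONV calls lost were Cxcl9 (-2.41, adjusted p = 0.0534), Oas3, Ifi35 and Herc6 (adjusted p = 0.098 to 0.129). The FLASH calls lost were Irf1, Ifih1, Dhx58, Cgas, Oas2, Ifit2 and Bst2, at -0.85 to -0.54 (adjusted p = 0.0599 to 0.142). Leaving out control 3 or FLASH 6 alone also gave 12 called members between FLASH and control, beside 35.2 and 33.9% of all genes. Leaving out CONV 6 gave 4 between CONV and control, beside 11.3%. The counts without control 3, FLASH 6 or CONV 6, of 35 members and in either direction, were close to the shares of all genes. Shares by direction are not given for those fits. Without the same 5 libraries, the edgeR test between FLASH and CONV called 0 of 35 at an adjusted p under 0.05, beside 1.62% of all genes. At an unadjusted p under 0.05 there were 11 members, and the share of all genes at that threshold is not given here. The median of the 35 was -0.43 in that comparison.

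**Figure D2:**
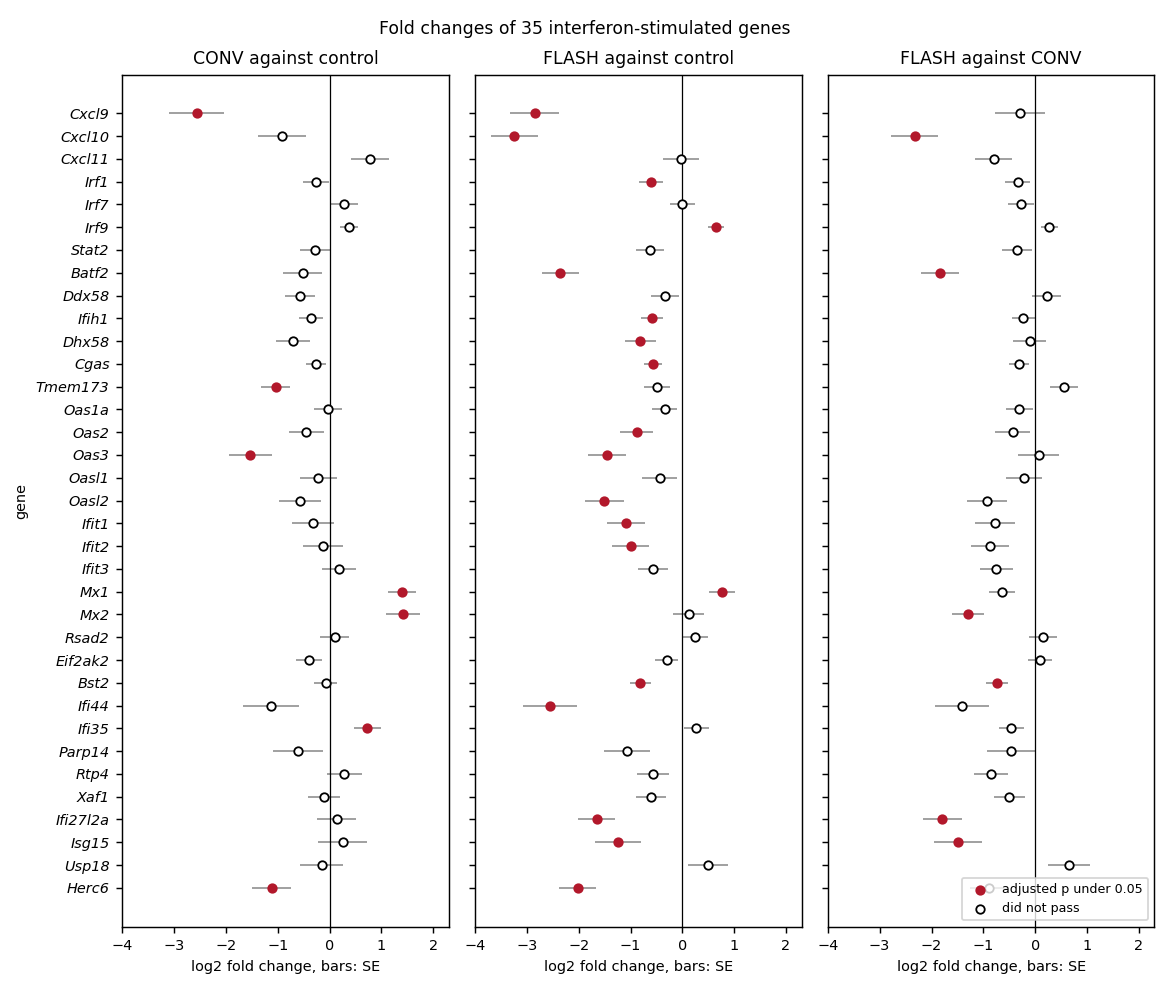
Log2 fold change (horizontal axis, bars are standard errors) of each of the 35 genes in the 3 comparisons, with filled points at an adjusted p under 0.05. Filled points lie mostly left of 0 for FLASH against control (17 lower, 2 higher), on both sides for CONV against control (4 lower, 3 higher) and left of 0 for FLASH against CONV (6 lower).

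Cxcl9, Cxcl10 and Cxcl11 encode chemokines that share the receptor CXCR3 and attract activated T and NK cells. Cxcl9 and Cxcl10 fell after FLASH, and Cxcl9 also fell after CONV. Cxcl9 lay at 17.01 to 36.5 CPM in controls (median 24.6), at 3.09, 3.66, 2.23, 1.81 and 10.6 CPM in CONV and at 1.42 to 8.75 CPM in FLASH (median 1.97). Every irradiated library was below every control. Its log2 fold change was -2.56 ± 0.53 (adjusted p = 0.00268) after CONV, 5.91-fold lower (adjusted p = 0.0534 without the 5 libraries with high ileum markers), and -2.85 ± 0.47 (adjusted p = 0.00014) after FLASH, 7.21-fold lower. FLASH against CONV gave -0.29 ± 0.48 (adjusted p = 0.717), with a 95% interval of -1.23 to 0.65. For Cxcl10, the controls gave 7.63 to 26.5 CPM (median 8.25), the CONV libraries 5.34, 4.43, 3.98, 2.302 and 15.7 CPM and the FLASH libraries 0.533 to 1.903 CPM (median 1.15). Every FLASH library was below every other library, while 4 CONV libraries lay below the controls and CONV 7 lay among them. Cxcl10 (ENSMUSG00000034855, chr5:92346638-92348889, minus strand) was 9.46-fold lower after FLASH than in controls, -3.24 ± 0.45 (adjusted p = 2.74e-05), and 5.01-fold lower than after CONV, -2.32 ± 0.45 (adjusted p = 0.00227). CONV against control gave -0.92 ± 0.46 (adjusted p = 0.145) with all libraries and -1.58 (adjusted p = 0.0154) without CONV 7. Cxcl11 passed in none of the comparisons, with log2 fold changes of 0.78 ± 0.37, -0.02 ± 0.34 and -0.80 ± 0.36 in the order CONV against control, FLASH against control and FLASH against CONV.

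The 5 transcription factors did not move together. Batf2, a basic leucine zipper factor of the AP-1 group induced by gamma interferon in macrophages, and Irf1, the factor that gamma interferon induces early, fell after FLASH, and Irf9, the DNA-binding subunit of the type I response factor, rose. Batf2 was counted at 17.8 to 32.3 CPM (median 23.8) without irradiation, at 13.3, 16.5, 13.9, 12.4 and 30.96 CPM after CONV and at 2.25 to 10.3 CPM (median 3.28) after FLASH. Every FLASH library was below every control and every CONV library. Batf2 (ENSMUSG00000039699, chr19:6140983-6172476, plus strand) was 5.11-fold lower than in controls, -2.35 ± 0.36 (adjusted p = 7.22e-05), and 3.57-fold lower than after CONV, -1.84 ± 0.37 (adjusted p = 0.00276). CONV against control gave -0.52 ± 0.38 (adjusted p = 0.316). Irf1 lay at 131 to 293 CPM in controls (median 201), at 132, 145, 180.2, 169 and 230.1 CPM in CONV and at 81.3 to 219 CPM in FLASH (median 112). FLASH libraries overlapped controls, with a log2 fold change of -0.60 ± 0.23 (adjusted p = 0.0419). With control 3, control 5, control 6, FLASH 1, FLASH 2, FLASH 6, FLASH 7 or FLASH 9 left out singly, Irf1 was at -0.63 to -0.48 (adjusted p = 0.0527 to 0.113). After CONV, Irf1 gave -0.26 ± 0.25 (adjusted p = 0.435). For Irf9, the controls gave 28.2 to 39.7 CPM (median 35.8), the CONV libraries 51.2, 33.3, 42.7, 60.7 and 41.6 CPM and the FLASH libraries 39.3 to 73.2 CPM (median 55.3). Irf9 was higher after FLASH by 0.65 ± 0.16 (adjusted p = 0.00346), with the lowest FLASH library inside the control range, and CONV gave 0.38 ± 0.17 (adjusted p = 0.109). When libraries were scaled by their totals, Irf9 after FLASH was at 0.28 (adjusted p = 0.0767).

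Irf7, which amplifies the production of type I interferons, and Stat2, which encodes a subunit of the type I response factor, passed in no comparison. Irf7 was counted at 51.6 to 173 CPM (median 118) without irradiation, at 124, 127, 109, 179 and 174 CPM after CONV and at 63.5 to 157 CPM (median 127) after FLASH. The FLASH range of Irf7 lay within the control range, with a difference of 0.00 ± 0.24 and a 95% interval of -0.47 to 0.47. Stat2 lay at 29.01 to 58.6 CPM in controls (median 47.04), at 26.97, 33.3, 38.2, 31.2 and 55.1 CPM in CONV and at 12.8 to 44.05 CPM in FLASH (median 28.8). The 3 ranges of Stat2 overlapped, and its differences were -0.27 ± 0.29 (adjusted p = 0.501) after CONV and -0.62 ± 0.27 (adjusted p = 0.0748) after FLASH. In 6 of 25 alternatives the FLASH value of Stat2 passed, with library totals, limma-voom, the replicate block with the length and GC offset, or control 6, FLASH 4 or FLASH 5 left out, and its adjusted p ranged from 0.00872 to 0.215.

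Among the 5 sensors and adaptors of nucleic acid sensing, 3 fell after FLASH (Ifih1, Dhx58 and Cgas, beside 21.0% of all genes). After CONV 1 fell (Tmem173, beside 12.0%), and none differed between FLASH and CONV (beside 19.8% of all genes called). Each of the 3 FLASH calls was lost on leaving out at least 1 library. For Ifih1, the controls gave 68.5 to 139.8 CPM (median 101), the CONV libraries 56.03, 78.3, 87.3, 72.1 and 108 CPM and the FLASH libraries 47.5 to 98.4 CPM (median 56.6). Ifih1 encodes MDA5, a sensor of long double-stranded RNA, and was at -0.58 ± 0.21 (adjusted p = 0.0378) after FLASH and -0.35 ± 0.23 (adjusted p = 0.267) after CONV, values of which the first alone passed. With control 1, control 3, control 4, control 5, FLASH 1, FLASH 2, FLASH 6, FLASH 7 or FLASH 9 left out singly, Ifih1 was at -0.60 to -0.48 after FLASH (adjusted p = 0.053 to 0.0987). Dhx58 was counted at 6.62 to 21.96 CPM (median 8.97) without irradiation, at 3.93, 5.72, 6.07, 5.73 and 12.9 CPM after CONV and at 4.01 to 8.19 CPM (median 6.53) after FLASH. Dhx58 encodes LGP2, a helper of MDA5, and its log2 fold change was -0.81 ± 0.30 (adjusted p = 0.0386) after FLASH and -0.70 ± 0.33 (adjusted p = 0.122) after CONV. With control 1, control 3, control 4, FLASH 1, FLASH 2, FLASH 4, FLASH 6 or FLASH 7 left out singly, Dhx58 was at -0.82 to -0.51 after FLASH (adjusted p = 0.0552 to 0.153). Control 3 and CONV 7 held the highest Dhx58 values of their groups, and without CONV 7 the CONV value was -1.06 (adjusted p = 0.0275). Cgas lay at 3.58 to 5.47 CPM in controls (median 4.46), at 3.56, 4.12, 2.61, 4.29 and 3.902 CPM in CONV and at 2.06 to 3.92 CPM in FLASH (median 2.98). Cgas encodes the DNA sensor that makes the messenger cGAMP. It fell after FLASH (-0.57 ± 0.18, adjusted p = 0.017) and gave -0.26 ± 0.19 (adjusted p = 0.329) after CONV, with overlap in both. Without control 1, Cgas was at -0.47 after FLASH (adjusted p = 0.0663). For Tmem173, the controls gave 5.58 to 20.5 CPM (median 9.04), the CONV libraries 5.87, 5.72, 5.1, 3.296 and 4.58 CPM and the FLASH libraries 5.24 to 9.12 CPM (median 7.17). Tmem173 encodes STING, the receptor for cGAMP, and fell after CONV (-1.04 ± 0.28, adjusted p = 0.0137). The highest control value belongs to control 2, and without it Tmem173 was at -0.71 (adjusted p = 0.0303) after CONV. FLASH against control gave -0.49 ± 0.25 (adjusted p = 0.13) for Tmem173 and FLASH against CONV 0.55 ± 0.27 (adjusted p = 0.151). Ddx58, which encodes the RNA sensor RIG-I, passed in no comparison (-0.56 ± 0.29 after CONV and -0.34 ± 0.26 after FLASH).

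Oligoadenylate synthetases make the messenger that activates RNase L, which degrades RNA, and the Oasl proteins are their relatives. Oas2, Oas3 and Oasl2 fell after FLASH, and Oas3 also fell after CONV. Oas3 was counted at 11.2 to 58.4 CPM (median 41.6) without irradiation, at 8.69, 9.42, 15.7, 7.72 and 23.98 CPM after CONV and at 5.297 to 21.6 CPM (median 14.4) after FLASH. Controls 2 and 6 lay within the range of the irradiated libraries, and the other 4 controls were above all CONV and FLASH libraries. Oas3 fell after CONV (-1.53 ± 0.42, adjusted p = 0.0161) and after FLASH (-1.45 ± 0.38, adjusted p = 0.00532). Without CONV 6, Oas3 was at -1.38 after CONV (adjusted p = 0.0532). Oasl2 lay at 67.5 to 216 CPM in controls (median 136), at 64.7, 90.5, 102, 62.2 and 133 CPM in CONV and at 19.2 to 91.4 CPM in FLASH (median 33.01). Oasl2 gave -1.50 ± 0.37 (adjusted p = 0.004) after FLASH, -0.58 ± 0.40 (adjusted p = 0.294) after CONV and -0.93 ± 0.38 (adjusted p = 0.0954) between FLASH and CONV. For Oas2, the controls gave 0.985 to 2.61 CPM (median 2.04), the CONV libraries 0.681, 1.53, 1.56, 1.13 and 2.23 CPM and the FLASH libraries 0.513 to 1.67 CPM (median 1.101). Oas2, the member of this family with the lowest level per kb of transcript, fell after FLASH (-0.88 ± 0.32, adjusted p = 0.034) and gave -0.45 ± 0.34 (adjusted p = 0.337) after CONV. With control 1, control 2, control 3, control 4, FLASH 1, FLASH 2, FLASH 4 or FLASH 6 left out singly, Oas2 was at -0.86 to -0.76 after FLASH (adjusted p = 0.0525 to 0.0894). Oas1a and Oasl1 passed in no comparison, with log2 fold changes between -0.44 and -0.04 in the 3 comparisons. Oas1a has near-identical copies such as Oas1g, and the estimated counts may split reads between them.

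Ifit1, Ifit2 and Ifit3 encode proteins that bind viral RNA and block its translation. Ifit1 and Ifit2 fell after FLASH (beside 21.0% of all genes). None of the 3 passed after CONV or between FLASH and CONV (beside 22.2 and 19.8% of all genes called). Ifit1 was counted at 25.5 to 140.2 CPM (median 69.6) without irradiation, at 33.7, 46.2, 34.8, 53.5 and 145 CPM after CONV and at 19.6 to 56.2 CPM (median 39.4) after FLASH. CONV 7 was above every control and the other CONV libraries lay below the control median. Ifit1 fell after FLASH (-1.09 ± 0.37, adjusted p = 0.0268) and gave -0.31 ± 0.40 (adjusted p = 0.574) after CONV, -0.89 (adjusted p = 0.0894) without CONV 7. With control 3, control 4, FLASH 6 or FLASH 7 left out singly, Ifit1 was at -1.02 to -0.84 after FLASH (adjusted p = 0.0506 to 0.0851). Ifit2 lay at 4.196 to 15.3 CPM in controls (median 10.6), at 4.503, 8.89, 8.08, 4.33 and 21.99 CPM in CONV and at 3.12 to 7.09 CPM in FLASH (median 5.81). Ifit2 fell after FLASH (-1.0 ± 0.35, adjusted p = 0.0307) and gave -0.13 ± 0.38 (adjusted p = 0.817) after CONV. With control 1, control 2, control 3, control 5, FLASH 1, FLASH 6 or FLASH 7 left out singly, Ifit2 was at -0.98 to -0.86 after FLASH (adjusted p = 0.0527 to 0.0749). Control 6 was the lowest control for Ifit2, apart from the others. Ifit3 gave -0.57 ± 0.30 (adjusted p = 0.143) after FLASH and 0.18 ± 0.32 (adjusted p = 0.695) after CONV. Ifit3 and Ifit3b, and Ifit1 and its Ifit1bl relatives, are close in sequence, so the division of reads among them is uncertain.

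Mx1 and Mx2, dynamin-like GTPases that block virus replication, were the members that rose most after CONV. C57BL/6 mice carry a defective Mx1 allele, so the Mx1 transcript does not yield the antiviral protein. Only RNA was measured, so whether the Mx2 transcript yields a working protein is not known from these data. For Mx1, the controls gave 1.01 to 1.91 CPM (median 1.19), the CONV libraries 2.51, 3.21, 3.91, 3.66 and 4.33 CPM and the FLASH libraries 1.303 to 3.14 CPM (median 1.88). Every CONV library was above every control, and FLASH libraries overlapped both groups. Mx1 was 2.63-fold higher after CONV, 1.40 ± 0.26 (adjusted p = 0.00142), and 1.69-fold higher after FLASH, 0.76 ± 0.25 (adjusted p = 0.0207). The difference between FLASH and CONV was -0.64 ± 0.25 (adjusted p = 0.0789). With libraries scaled by their totals, the FLASH value of Mx1 was 0.39 (adjusted p = 0.214). Mx2 lay at 1.29 to 3.002 CPM in controls (median 2.095), at 4.503, 3.801, 5.06, 3.75 and 11.2 CPM in CONV and at 1.45 to 3.97 CPM in FLASH (median 2.11). Every CONV library was again above every control, with CONV 7 highest, while FLASH libraries overlapped the controls. Mx2 was 2.67-fold higher after CONV, 1.42 ± 0.32 (adjusted p = 0.00529), with 0.12 ± 0.30 (adjusted p = 0.775) after FLASH, and 2.45-fold lower after FLASH than after CONV, -1.29 ± 0.31 (adjusted p = 0.00752). Without CONV 7, CONV against control was 1.01 (adjusted p = 0.0207) and FLASH against CONV -0.89 (adjusted p = 0.0405). Per kb of transcript, Mx1 at 0.395 CPM per kb had the lowest control mean of the 35 genes, Mx2 was at 0.877, and Irf1, the highest, was at 96.3.

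Of the other 9 effectors, Bst2, Ifi44 and Ifi27l2a fell after FLASH and Ifi35 rose after CONV. Bst2 encodes tetherin, which holds budding virus at the cell surface. Bst2 was counted at 13.5 to 20.8 CPM (median 16.7) without irradiation, at 15.6, 15.2, 11.5, 14.4 and 24.4 CPM after CONV and at 6.25 to 12.8 CPM (median 10.5) after FLASH. Every FLASH library was below every control. Bst2 gave -0.81 ± 0.20 (adjusted p = 0.00411) after FLASH, or -0.60 (adjusted p = 0.0599) without the 5 libraries with high ileum markers, -0.08 ± 0.22 (adjusted p = 0.813) after CONV and -0.73 ± 0.21 (adjusted p = 0.0204) between FLASH and CONV, the last being -0.54 (adjusted p = 0.0878) without CONV 7. Ifi27l2a lay at 5.27 to 16.2 CPM in controls (median 8.56), at 9.48, 13.8, 5.77, 6.95 and 15.5 CPM in CONV and at 0.888 to 5.04 CPM in FLASH (median 2.33). All FLASH libraries lay below all others for Ifi27l2a (ENSMUSG00000079017, chr12:103442167-103443680, minus strand), which encodes a small membrane protein of the Ifi27 family. It was 3.15-fold lower after FLASH than in controls, -1.66 ± 0.36 (adjusted p = 0.0015), and 3.46-fold lower than after CONV, -1.79 ± 0.37 (adjusted p = 0.0034), and CONV against control gave 0.14 ± 0.38 (adjusted p = 0.807). For Ifi44, the controls gave 4.19 to 17.2 CPM (median 7.63), the CONV libraries 1.31, 4.78, 2.12, 2.39 and 8.87 CPM and the FLASH libraries 0.316 to 2.82 CPM (median 1.52). Ifi44, one of the classical interferon-stimulated transcripts, was 5.87-fold lower after FLASH, -2.55 ± 0.51 (adjusted p = 0.0008), and gave -1.14 ± 0.54 (adjusted p = 0.128) after CONV and -1.69 (adjusted p = 0.0427) without CONV 7. Ifi35 was counted at 41.2 to 144 CPM (median 74.2) without irradiation, at 138, 111, 119.8, 195 and 138 CPM after CONV and at 60.5 to 136 CPM (median 107) after FLASH. Ifi35, a leucine zipper protein gene, rose after CONV by 0.73 ± 0.26 (adjusted p = 0.0495), with 0.73 (adjusted p = 0.0748) without CONV 7, and gave 0.27 ± 0.24 (adjusted p = 0.395) after FLASH. With control 1, control 2, control 4, control 5, CONV 2, CONV 5, CONV 6 or CONV 7 left out singly, Ifi35 was at 0.57 to 0.78 after CONV (adjusted p = 0.0533 to 0.161).

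The remaining 5 effectors passed in no comparison. Rsad2 (viperin) and Eif2ak2 (the double-stranded RNA kinase PKR) gave 0.24 ± 0.26 and -0.30 ± 0.22 after FLASH. Parp14, an ADP-ribosyltransferase, gave -1.07 ± 0.44 (adjusted p = 0.0636), and FLASH 1 was its lowest library and control 6 its lowest control. Rtp4 gave -0.57 ± 0.31 and Xaf1, a regulator of apoptosis, -0.60 ± 0.28. After CONV these 5 lay between -0.61 (Parp14) and 0.28 (Rtp4).

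ISG15 is a ubiquitin-like protein, HERC6 the main ligase that attaches it to other proteins in mice, and USP18 removes it and also restrains the type I receptor. For Isg15, the controls gave 9.36 to 70.2 CPM (median 24.7), the CONV libraries 25.5, 20.5, 20.4, 47.9 and 78.3 CPM and the FLASH libraries 4.403 to 20.4 CPM (median 16.2). The highest FLASH library (FLASH 9) and the lowest CONV library (CONV 5) were almost equal, both 20.4 CPM after rounding, and FLASH overlapped the lower controls. Isg15 (ENSMUSG00000035692, chr4:156199424-156200818, minus strand) fell after FLASH (-1.24 ± 0.44, adjusted p = 0.033) and gave 0.25 ± 0.48 (adjusted p = 0.714) after CONV. Between FLASH and CONV the difference was -1.49 ± 0.46 (adjusted p = 0.029), 2.82-fold lower after FLASH, and -1.06 (adjusted p = 0.127) without CONV 7. With CONV 6, CONV 7, FLASH 2, FLASH 6 or FLASH 7 left out singly, Isg15 was at -1.47 to -1.06 against CONV (adjusted p = 0.0523 to 0.127). With control 3, control 6, FLASH 2, FLASH 6 or FLASH 7 left out singly, Isg15 was at -1.22 to -0.86 against control (adjusted p = 0.0545 to 0.123). Herc6 was counted at 18.9 to 84.7 CPM (median 47.7) without irradiation, at 11.5, 19.98, 18.4, 17.8 and 46.5 CPM after CONV and at 5.29 to 16.9 CPM (median 12.1) after FLASH. Every FLASH library was below every control, and all CONV libraries but CONV 7 lay near the lowest control. Herc6 was 4.05-fold lower after FLASH, -2.02 ± 0.35 (adjusted p = 0.000253), and fell after CONV (-1.12 ± 0.39, adjusted p = 0.0441). With control 1, control 3, control 4, control 5, CONV 2, CONV 3, CONV 5 or CONV 6 left out singly, Herc6 was at -1.21 to -0.90 after CONV (adjusted p = 0.0512 to 0.115). Usp18 passed in no comparison: it gave 0.50 ± 0.39 (adjusted p = 0.326) after FLASH, -0.15 ± 0.42 (adjusted p = 0.802) after CONV and 0.65 ± 0.41 (adjusted p = 0.276) between FLASH and CONV.

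**Figure D3:**
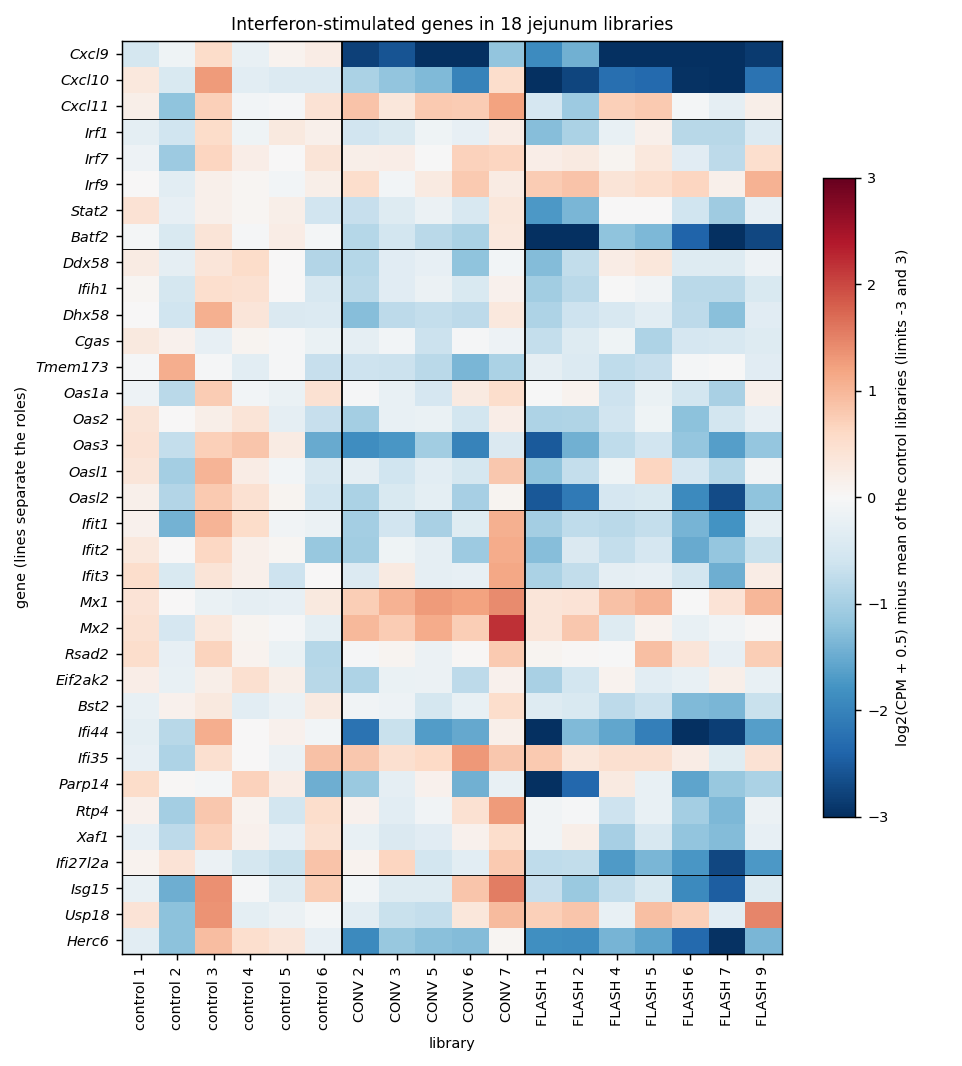
Log2(CPM + 0.5) of each of the 35 genes (rows, by role) in each library (columns), minus the mean of the 6 control libraries, with red higher and blue lower and colours limited at -3 and 3. Cxcl9 is blue in all CONV and FLASH libraries, Cxcl10, Batf2, Ifi44 and Herc6 are darkest in FLASH, Mx1 is red in all CONV libraries, and the CONV 7 column is redder than its neighbours.

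**Figure D4:**
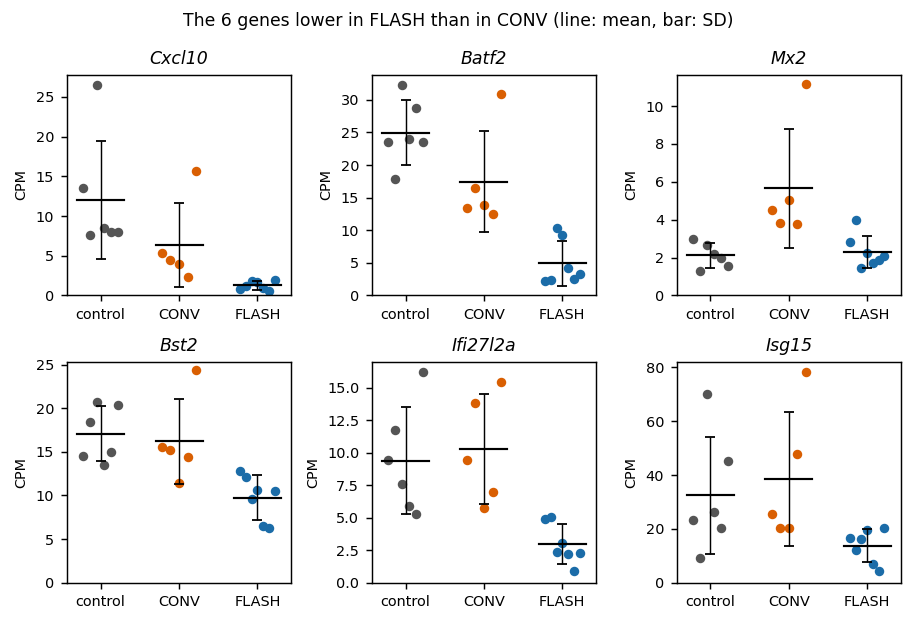
CPM (vertical axes, starting at 0) of the 6 genes lower in FLASH than in CONV, with 1 point per library, a line at the group mean and a bar of 1 SD. CONV 7 is the highest CONV point in all 6 panels, and FLASH points lie below all CONV points for Cxcl10, Batf2, Ifi27l2a and Isg15.

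The mean ± SD of these 6 genes in CPM showed the spread behind the tests (n = 6 control, 5 CONV and 7 FLASH libraries). Cxcl10 was 12.02 ± 7.45 in controls, 6.35 ± 5.33 in CONV and 1.27 ± 0.5502 in FLASH. For Batf2 the values were 24.99 ± 4.98, 17.4 ± 7.71 and 4.903 ± 3.44, and for Ifi27l2a 9.38 ± 4.11, 10.3 ± 4.23 and 2.98 ± 1.52. Cxcl10, Batf2, Ifi27l2a and Mx2 passed in each of the 12 fits that left out 1 FLASH or CONV library, Bst2 in all but 1 (without CONV 7, -0.54 (adjusted p = 0.0878)) and Isg15 in all but 5. Without the 5 libraries with high ileum markers, Cxcl10 was at -2.30 (adjusted p = 0.054), Batf2 at -1.80 (adjusted p = 0.066), Ifi27l2a at -1.40 (adjusted p = 0.0923), Mx2 at -1.40 (adjusted p = 0.0688), Bst2 at -0.59 (adjusted p = 0.202) and Isg15 at -1.53 (adjusted p = 0.0755), with 3 CONV and 5 FLASH libraries left.

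The interferons themselves were almost absent from the libraries. Of 21 interferon genes listed, 13 had 0 counts in all 18 libraries, which allows up to 3 counts per library, or 0.0993 to 0.150 CPM, for counting error only. Those 13 include Ifnl2 and Ifnl3, the type III genes. Ifnb1 had 3 counts in all, in 3 control libraries. Ifng, the type II interferon, had 97 counts in the 6 controls, 10 in CONV (in 2 of 5 libraries) and 19 in FLASH (in 6 of 7). None of the 21 passed the filter on low counts. With genes of at least 1 count kept, edgeR's test gave Ifng -2.75 ± 0.81 (adjusted p = 0.0366) after CONV and -2.21 ± 0.69 (adjusted p = 0.028) after FLASH, fitted values that rest on few counts, and no other interferon passed. Alpha interferon genes are close copies of each other, and the counts cannot separate them with certainty.

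Of 6 receptor genes, 5 rose after FLASH (beside 16.7% of all genes) and 2 after CONV (beside 10.2%), and none fell. With libraries scaled by their totals, 3 rose after FLASH and 0 after CONV (beside 8.49 and 5.59% of all genes). Ifnar1 lay at 38.5 to 49.6 CPM in controls (median 47.2), at 45.2, 52.03, 50.1, 57.8 and 52.6 CPM in CONV and at 55.5 to 137 CPM in FLASH (median 94.2). Every FLASH library was above every control. Ifnar1, which with Ifnar2 forms the type I receptor, gave 1.04 ± 0.19 (adjusted p = 0.000307) after FLASH, 0.16 ± 0.20 (adjusted p = 0.561) after CONV and 0.88 ± 0.20 (adjusted p = 0.00531) between FLASH and CONV. Ifnar2 rose by 0.55 ± 0.16 (adjusted p = 0.0215) after CONV and by 1.14 ± 0.15 (adjusted p = 1.8e-05) after FLASH. With control 5 or CONV 6 left out singly, Ifnar2 was at 0.45 after CONV in both fits (adjusted p = 0.0566 to 0.0825). The shared type III subunit Il10rb rose after CONV by 0.52 ± 0.17 (adjusted p = 0.0316), and with any of 8 libraries left out singly it was at 0.42 to 0.52 (adjusted p = 0.0502 to 0.104). Il10rb rose by 0.92 ± 0.16 (adjusted p = 0.000175) after FLASH, Ifngr2 by 0.67 ± 0.17 (adjusted p = 0.00457) and Ifnlr1, the epithelial type III subunit, by 0.56 ± 0.15 (adjusted p = 0.00585). Ifngr1, the ligand-binding type II subunit, gave 0.42 ± 0.21 (adjusted p = 0.117), and FLASH 1 and FLASH 2 were its highest libraries.

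Of 3 receptor kinases, 1 rose after FLASH (beside 16.7% of all genes), 0 passed after CONV and 1 was higher in FLASH than in CONV (beside 9.88%). With libraries scaled by their totals, none was called higher in any comparison and 1 was called lower after FLASH (beside 40.3%). Jak2 rose after FLASH by 0.49 ± 0.13 (adjusted p = 0.00737), and Jak1 was higher in FLASH than in CONV by 0.73 ± 0.20 (adjusted p = 0.0154). Of 5 feedback inhibitors, 1 fell after CONV (beside 12.0%), and 1 fell and 1 rose after FLASH (beside 21.0 and 16.7%). Socs1, an interferon-induced inhibitor of receptor signalling, fell after CONV (-1.41 ± 0.33, adjusted p = 0.007) and after FLASH (-1.95 ± 0.30, adjusted p = 8.67e-05). Socs3, another inhibitor of cytokine receptors, named after its values were seen, rose after FLASH by 1.08 ± 0.42 (adjusted p = 0.0499), and with any of 9 libraries left out singly it was at 0.79 to 1.15 (adjusted p = 0.0566 to 0.127).

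Of 59 pathway genes listed outside the 35, 38 could be tested: 2 rose and 6 fell after CONV (beside 10.2 and 12.0% of all genes), 12 rose and 8 fell after FLASH (beside 16.7 and 21.0%), and FLASH was higher than CONV for 6 and lower for 3 (beside 9.88 and 9.91%). With libraries scaled by their totals, 0 rose and 8 fell after CONV (beside 5.59 and 17.5%), 4 rose and 18 fell after FLASH (beside 8.49 and 40.3%), and FLASH was higher than CONV for 4 and lower for 6 (beside 5.60 and 17.3%). Without the 5 libraries with high ileum markers, 1 passed after CONV, 20 after FLASH and 0 between FLASH and CONV (beside 6.58, 24.1 and 1.62%). Without control 6 alone, 17 of the 38 passed after CONV, close to the share of all genes called in that fit (40.1%). Irf4, a lymphocyte factor, fell after CONV (-2.41 ± 0.32, adjusted p = 6.47e-05) and after FLASH (-1.92 ± 0.28, adjusted p = 3.79e-05). Tlr3, a sensor of endosomal RNA, fell after CONV (-1.02 ± 0.21, adjusted p = 0.00321) and after FLASH (-1.24 ± 0.19, adjusted p = 8.62e-05). The 2 kinases downstream of the sensors went apart: Ikbke, itself interferon-inducible, fell after FLASH (-2.16 ± 0.33, adjusted p = 6.15e-05) and was lower than after CONV (-1.60 ± 0.33, adjusted p = 0.00341), while Tbk1 rose after FLASH by 0.89 ± 0.16 (adjusted p = 0.000385). Trim25, the ligase that activates RIG-I, was higher after FLASH than after CONV by 0.69 ± 0.14 (adjusted p = 0.00369), and Tlr7 by 1.43 ± 0.31 (adjusted p = 0.00414).

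**Figure D5:**
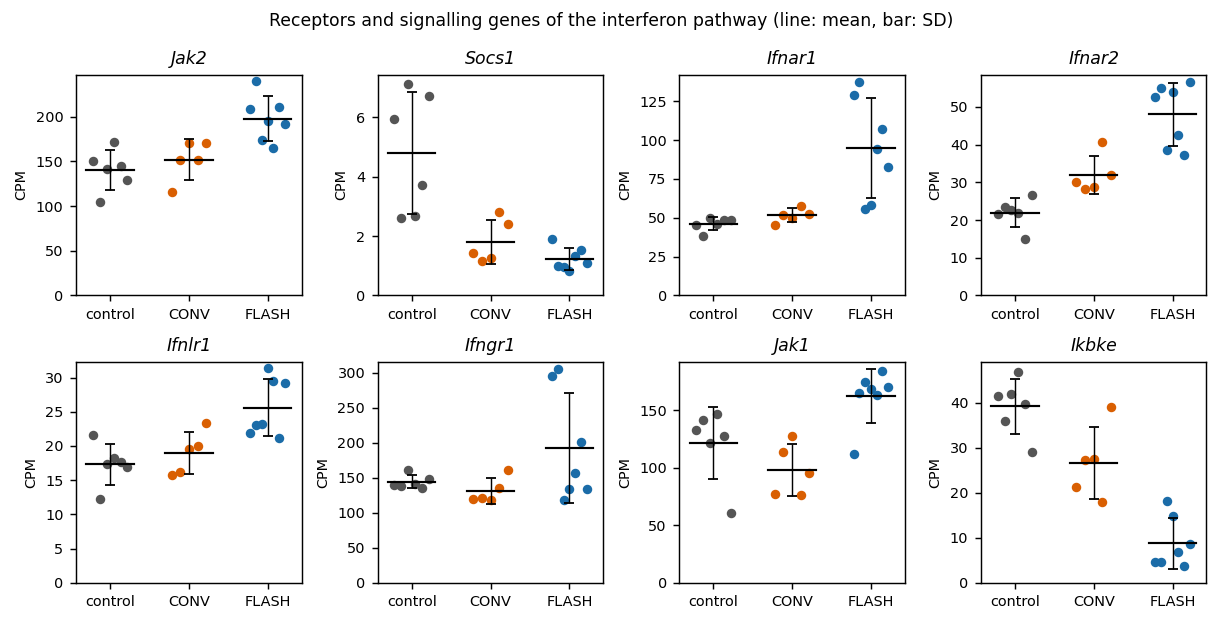
CPM (vertical axes, starting at 0) of 8 pathway genes, with 1 point per library, a line at the group mean and a bar of 1 SD. Socs1 and Ikbke decline from control through CONV to FLASH in their means, whereas Ifnar1, Ifnar2 and Ifnlr1 are highest in FLASH.

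Of 44 further interferon-stimulated genes outside the list, 6 fell and 3 rose after CONV (beside 12.0 and 10.2% of all genes), 18 fell and 0 rose after FLASH (beside 21.0 and 16.7%), and FLASH was lower than CONV for 9 and higher for 1 (beside 9.91 and 9.88%), by edgeR's test at an adjusted p under 0.05. Of the calls, 7 of 9 after CONV, 1 of 18 after FLASH and 7 of 10 between FLASH and CONV were lost on leaving out at least 1 library. Their median log2 fold changes were -0.21, -0.70 and -0.28. Without the 5 libraries with high ileum markers, edgeR's test called 2 after CONV, 16 after FLASH and 0 between FLASH and CONV (9 at an unadjusted p under 0.05). Of all genes, it called 6.58, 24.1 and 1.62% at an adjusted p under 0.05, and their share at an unadjusted p is not given here. Nlrc5, the transactivator of MHC class I genes, fell after CONV (-2.11 ± 0.34, adjusted p = 0.000399) and after FLASH (-1.85 ± 0.30, adjusted p = 0.000111), and Sp110, a nuclear body protein gene, fell after CONV (-1.58 ± 0.28, adjusted p = 0.000898) and after FLASH (-1.73 ± 0.25, adjusted p = 4.34e-05). Psmb9, an immunoproteasome subunit, fell after FLASH (-2.32 ± 0.37, adjusted p = 0.000118). Trim30a was lower in FLASH than in control (-1.50 ± 0.24, adjusted p = 0.000127) and lower than in CONV (-1.10 ± 0.25, adjusted p = 0.00608). Ifit1bl2, a close relative of Ifit1, rose after CONV by 1.29 ± 0.36 (adjusted p = 0.0179). Without CONV 6, Ifit1bl2 was at 1.14 (adjusted p = 0.0592). Lgals3bp was higher in FLASH than in CONV by 0.58 ± 0.17 (adjusted p = 0.022). With CONV 2 or CONV 6 left out singly, Lgals3bp was at 0.53 to 0.55 (adjusted p = 0.0577 to 0.0594).

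Most GTPases induced mainly by gamma interferon, which attack vacuoles that hold pathogens, fell in the irradiated groups. Of 16, 13 fell after CONV (beside 12.0% of all genes), 16 fell after FLASH (beside 21.0%) and 4 were lower in FLASH than in CONV (beside 9.91%), with medians of -1.15, -1.67 and -0.63. Without the 5 libraries with high ileum markers, 4 fell after CONV, 14 after FLASH and 0 differed between FLASH and CONV by edgeR's test (4 at an unadjusted p under 0.05). In that setting 6.58, 24.1 and 1.62% of all genes were called in either direction at an adjusted p under 0.05. Their share at an unadjusted p is not given here. With libraries left out singly, 6 of the 13 CONV calls (Gbp3, Gbp7, Gbp10, Igtp, Irgm1 and Tgtp1) and 3 of the 4 calls between FLASH and CONV (Gbp10, Iigp1 and Tgtp2) were lost in at least 1 fit, and 0 of the 16 FLASH calls. Gbp6 fell after CONV (-2.30 ± 0.40, adjusted p = 0.000727) and after FLASH (-3.26 ± 0.36, adjusted p = 3.34e-06), and Gbp2 fell after CONV (-1.61 ± 0.23, adjusted p = 0.000172) and after FLASH (-1.66 ± 0.21, adjusted p = 1.12e-05). Iigp1 was counted at 18.99 to 42.5 CPM (median 32.8) without irradiation, at 10.7, 12.6, 11.3, 8.62 and 19.3 CPM after CONV and at 6.28 to 11.2 CPM (median 7.56) after FLASH. Every FLASH library was below every control. Iigp1 fell after CONV (-1.32 ± 0.23, adjusted p = 0.000928) and after FLASH (-1.97 ± 0.21, adjusted p = 2.59e-06), and was lower in FLASH than in CONV (-0.65 ± 0.22, adjusted p = 0.0453). With CONV 2, CONV 3, CONV 5, CONV 7, FLASH 1, FLASH 2, FLASH 4, FLASH 6 or FLASH 7 left out singly, Iigp1 was at -0.70 to -0.44 against CONV (adjusted p = 0.0562 to 0.181). Tgtp1 and Tgtp2 are near-identical, so their separate values are uncertain: Tgtp2 fell after FLASH (-2.14 ± 0.24, adjusted p = 3.21e-06).

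Markers of T and NK cells, macrophages, dendritic cells and B cells also fell in part in the irradiated groups, and more markers of neutrophils rose than fell. The 12 markers of T and NK cells (none at 0 in any group) summed to 176 to 514 CPM in controls, 61.4 to 238 CPM in CONV and 90.5 to 244 CPM in FLASH. In CONV the highest sum, 238 CPM, was that of CONV 7, and the other 4 libraries lay at 61.4 to 110 CPM. Of the 12, 7 fell after CONV (beside 12.0% of all genes) and 7 after FLASH (beside 21.0%). By edgeR's test, 0 differed between FLASH and CONV at an adjusted p under 0.05, beside 19.8% of all genes. At an unadjusted p under 0.05 there was 1, and the share of all genes at that threshold is not given here. Of the 11 that could be tested, 9 had a positive and 2 a negative difference between FLASH and CONV, and none of these differences passed. The 7 markers of conventional dendritic cells summed to 13.6 to 56.4 CPM in controls, 8.40 to 14.9 CPM in CONV and 9.91 to 20.4 CPM in FLASH. In each irradiated group 5 fell (beside 12.0% of all genes after CONV and 21.0% after FLASH). The 9 markers of macrophages and monocytes summed to 221 to 415, 209 to 234 and 191 to 308 CPM, the 7 of plasmacytoid dendritic cells to 160 to 276, 152 to 169 and 128 to 184 CPM, and the 5 of B cells to 23.5 to 172, 2.89 to 14.5 and 2.16 to 11.4 CPM, in the order control, CONV and FLASH. After CONV 5 macrophage, 3 plasmacytoid and 2 B cell markers fell (beside 12.0% of all genes), and 1 plasmacytoid marker rose (beside 10.2%). After FLASH 4, 2 and 4 fell (beside 21.0%), and 1 macrophage and 1 plasmacytoid marker rose (beside 16.7%). For the 7 plasmacytoid markers, the counts after FLASH were near the shares of all genes. The 7 markers of neutrophils summed to 8.21 to 41.6, 13.1 to 19.9 and 10.9 to 64.1 CPM. Of these, 3 rose and 0 fell after CONV (beside 10.2 and 12.0% of all genes), and 4 rose and 1 fell after FLASH (beside 16.7 and 21.0%). The 5 markers of smooth muscle summed to 778 to 2850, 100 to 815 and 278 to 967 CPM, of which 3 fell after CONV and 5 after FLASH (beside 12.0 and 21.0%). Of the 8 epithelial markers, whose sums are given above, 4 rose and 1 fell after CONV (beside 10.2 and 12.0%). After FLASH 5 of them rose and 0 fell (beside 16.7 and 21.0%). None of these markers was at 0 in a whole group. The part of cell composition in the changes of the 35 genes was not tested.

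Longer transcripts were favoured in some libraries over others: the slope of log2 level on log2 transcript length, relative to the mean of all libraries, ranged from -0.42 (control 6) to 0.32 in controls, from -0.44 (CONV 6) to 0.05 in CONV and from -0.34 (FLASH 1) to 0.28 in FLASH. With length and GC content offset in the fit, 8, 22 and 6 of the 35 genes were called in CONV against control, FLASH against control and FLASH against CONV, beside 26.4, 46.3 and 25.3% of all genes. Without control 6, CONV 6 and FLASH 1 the counts were 6, 16 and 6, beside 32.3, 43.9 and 23.4% of all genes.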

How the data were processed

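RNA of 18 jejunum libraries was profiled, per the labels' protocols, with a stranded mRNA ligation kit (250 ng input) and single-end reads of 100 bp. The deposited expected counts (estimated counts per gene, not scaled) were made by the authors with STAR and Salmon on mm10, per the submitters' processing notes, which also name edgeR 3.40.2 and limma 3.54.2. They were rounded here. A second table that the authors deposited holds log2 normalized values for 19193 genes and served as an alternative only. The 123 IDs without a symbol held 0.028% of counts.

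The main test was quasi-likelihood testing in edgeR 4.0.16 under R 4.3.3. The 3 groups were fitted together, with low counts removed by filterByExpr, TMM scaling, robust dispersion estimates, and p-values adjusted by Benjamini and Hochberg's method over 16257 genes, at 0.05. Values after ± are standard errors for log2 fold changes (absolute value over the root of F) and SD for CPM. The 95% intervals use that error. Log2 CPM used a prior count of 2. Transcript lengths came from GENCODE vM21. The members and the gene lists were chosen with earlier results of these data known. Described in every library were members that passed in any comparison and Ifit1, Isg15, Mx1, Cxcl10, Irf7, Stat2 and Cgas. Of other lists, up to 4 genes with the smallest p per comparison were eligible, and Ifnar1, Ifngr1, Ifnlr1, Ifng and Ifnb1 in any case; an item of this rule is not reported here. Alternatives were other scalings and filters, DESeq2 1.42.0, limma 3.58.1, a spline offset for length and GC (4 degrees of freedom), a replicate block and leaving out libraries. The pipeline was tested on simulated data. No 2 libraries were duplicates (lowest chi-square per degree of freedom 25.2).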

Additional observations from a re-analysis of the deposited data

Results flagged for a closer look

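In 6 of 105 groups of values (35 genes in 3 groups of libraries), the highest or the lowest library stood apart from the nearest other by more than Dixon's 95% criterion allows, where chance gives about 1 in 20. CONV 7 was the high library for 3 genes: Oasl1 at 97.1 CPM, Mx2 at 11.2 CPM and Rsad2 at 14.4 CPM. Control 6 was the low library for Ifit2 at 4.2 CPM and Parp14 at 49.2 CPM. Control 2 was the high library for Tmem173 at 20.5 CPM.

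Ifi27l2a and Isg15 had opposite signs against control in the irradiated groups, positive after CONV and negative after FLASH, and the difference between FLASH and CONV passed edgeR's test at a log2 fold change of -1.79 for Ifi27l2a and -1.49 for Isg15. The positive CONV values themselves did not pass (0.14 and 0.25), and both were below 0 without CONV 7, at -0.055 for Ifi27l2a and -0.18 for Isg15. The CONV value of Ifi27l2a was also -0.039 with library totals.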

How the results depend on the processing

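No called member changed direction under any alternative run. Of the 7, 19 and 6 members called in CONV against control, FLASH against control and FLASH against CONV, 3, 8 and 0 passed under every alternative. The cause of the changes was not tested, except that the fits without libraries hold fewer samples. Without the 5 libraries over 100 CPM of ileum markers, a choice made after seeing the data, 3, 12 and 0 members were called, the last with 11 at an unadjusted p under 0.05. The shares of all genes called there at an adjusted p under 0.05 were 6.58, 24.1 and 1.62%, and their share at an unadjusted p is not given here. The filter of at least 1 count gave 12 called members in FLASH against control, beside 16.2% of all genes. Library totals gave 12 in FLASH against CONV, beside 22.9%. Leaving out 1 library gave 4 to 9 called members in CONV against control (4 without CONV 6, 9 without CONV 7). It gave 12 to 21 in FLASH against control (12 without control 3 or FLASH 6) and 4 to 7 in FLASH against CONV. Across these fits, 11.3 to 40.1, 31.5 to 44.3 and 13.1 to 22.7% of all genes were called in the same order. The medians of the members were -0.48 to -0.06 (without control 3), -0.68 to -0.51 and -0.55 to -0.29.

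With a replicate block on the label numbers, 5, 16 and 3 members were called, beside 15.5, 26.3 and 9.65% of all genes. With the block and the length and GC offset together, 7, 17 and 6 were called, beside 21.5, 37.4 and 16.6%. Same-numbered libraries share only a number: their correlations ran from -0.27 to 0.61, and not every library correlated best with its own number.

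Signs changed under an alternative for 12 of 28, 5 of 16 and 6 of 29 members that had not passed in CONV against control, FLASH against control and FLASH against CONV, and none of the values of the other sign passed. After CONV, library totals put Rsad2 at -0.108 and Ifi27l2a at -0.039, and the length and GC offset put Stat2 at 0.037, Ifit3 at -0.175 and Rtp4 at -0.0012 (0.035, -0.24 and -0.048 with the block as well). Oas1a after CONV was at 0.0091 with limma-voom and 0.0245 with limma on the authors' deposited log2 values. Without control 6, CONV 6 and FLASH 1, Oas1a was at 0.031 and Bst2 at 0.062, and without the 5 ileum-marker libraries Ifit2 was at 0.113. Leaving out 1 library moved the CONV values of Oas1a from -0.18 to 0.148, Oasl1 from -0.57 to 0.046, Ifit2 from -0.69 to 0.057, Ifit3 from -0.20 to 0.31, Rsad2 from -0.114 to 0.26, Bst2 from -0.27 to 0.028, Rtp4 from -0.0599 to 0.47, Xaf1 from -0.29 to 0.061, Ifi27l2a from -0.055 to 0.36, Isg15 from -0.18 to 0.63 and Usp18 from -0.51 to 0.25.

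After FLASH, library totals put Irf7, 0.00 in the main test, at -0.36, Mx2 at -0.26, Rsad2 at -0.138 and Ifi35 at -0.085. Irf7 was at -0.0163 with the length and GC offset and -0.0014 in the fit of 2 groups. Cxcl11 was at 0.0102 with DESeq2 size factors, 0.0077 with DESeq2, 0.0 with limma on the authors' values and 0.183 without control 6, CONV 6 and FLASH 1. Leaving out 1 library moved Cxcl11 from -0.20 to 0.16, Irf7 from -0.127 to 0.144 and Mx2 from -0.057 to 0.28. Between FLASH and CONV, library totals put Oas3 at -0.106, Rsad2 at -0.030 and Eif2ak2 at -0.076. Oas3 was at -0.20 with the length and GC offset, and with the block as well Oas3 was at -0.174, Cxcl9 at 0.0885 and Dhx58 at 0.062 (0.0123 with the block alone). Without the 5 ileum-marker libraries Oas3 was at -0.132 and Eif2ak2 at -0.117. Leaving out 1 library moved Cxcl9 from -0.69 to 0.38, Dhx58 from -0.25 to 0.25, Oas3 from -0.070 to 0.41, Oasl1 from -0.46 to 0.13 and Eif2ak2 from -0.021 to 0.24. Genes that did not pass the filter on low counts, the interferons among them, had no value in the main test.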

Other observations

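Genes that degrade or edit nucleic acids, which keep the sensors from responding to the cell's own material, were listed with 7 members. After FLASH, 2 of the 7 fell: Samhd1, which breaks down nucleotides, at a log2 fold change of -1.24 ± 0.27 (adjusted p = 0.00174 in edgeR's test, beside 21.0% of all genes called lower), and Rnaseh2c, a subunit of the enzyme that removes RNA from RNA-DNA hybrids, at -1.04 ± 0.20 (adjusted p = 0.000465). The count of 2 of 7 was near the 21.0% of all genes called lower. After CONV none of the 7 passed (beside 22.2% of all genes called). Rnaseh2c was also lower in FLASH than in CONV, at -0.75 ± 0.20 (adjusted p = 0.0156), and at -0.59 (adjusted p = 0.065) without CONV 7. It was the 1 gene of the 7 called in that comparison, beside 9.91% of all genes called lower.

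The related factors Irf2 and Irf3 differed between the dose rates in opposite directions. Irf3, which the sensors activate, was lower in FLASH than in CONV, at -0.83 ± 0.21 (adjusted p = 0.0103), and Irf2, an antagonist of Irf1, was higher at 0.64 ± 0.18 (adjusted p = 0.0184). With CONV 2 or CONV 6 left out singly, Irf2 was at 0.55 to 0.58 (adjusted p = 0.0503 to 0.0585).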
